A study of Mus musculus with 6 samples.

Results

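The mitochondrial carrier family was followed through 6 Nanopore cDNA libraries of mouse skeletal muscle. Members were the genes whose symbol is Slc25a and a number and whose reads came to at least 10 counts over the 6 libraries, with 1 gene set aside, and 36 of the 46 numbered genes in the table met that rule. The other 10 had fewer reads, and of the 36 members 29 passed the filter on low counts and were tested, among 9229 genes tested of 22036 in the table. All 6 libraries came from mice lacking PRR14, a nuclear protein, and were made 1 month after injection of adeno-associated virus, a gene-delivery vector. In 3 libraries the virus carried MEF2C-GFP, a muscle transcription factor with green fluorescent protein (the MEF2C group), and in the other 3 it carried GFP (the GFP group). The labels name neither the muscle, the viral promoter and serotype, nor the age of the animals, and no wild-type or uninjected muscle was used here. They also do not say whether replicates are separate animals, so that p-values describe the spread of these samples alone, which may be technical.

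Carriers of this family are small proteins of the inner mitochondrial membrane, each built from repeats of a similar fold, that exchange nucleotides, phosphate, amino acids, carboxylates, cofactors and iron compounds between the cytosol and the matrix. They are encoded in the nucleus, made in the cytosol and inserted through the outer-membrane TOM complex and the inner-membrane TIM22 complex. In muscle the best known members are the ADP/ATP carrier, which delivers ATP to the contractile apparatus, the phosphate carrier that supplies the ATP synthase, the malate-aspartate shuttle carriers and the acylcarnitine carrier of fatty acid oxidation.

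Reads assigned to listed genes numbered between 3370833 and 3900617 per library, and 13001 to 13637 genes were detected in each. Levels are given as normalised CPM, counts scaled to the listed reads of each library after TMM normalisation, and values of a group are listed in the order of its replicates 1, 2 and 3. Where a gene has 0 counts, up to 3 counts are allowed, 0.726 to 0.957 normalised CPM, and such limits and the intervals of counts cover counting error only, since the reads carry no molecular identifiers. Mef2c, the gene in the virus, was examined first and stood at 234, 196 and 371 CPM in the MEF2C group and 223, 261 and 236 in the GFP group. MEF2C replicate 3 alone exceeded the GFP libraries, so directions below are those of the libraries as labelled. Whether reads of the viral transcript were counted under this mouse gene is not given in the sources used here. These values are therefore not a measure of viral delivery. Muscle fibre markers were detected in 8 of 8 cases, with Ckm between 35854 and 50412 CPM and Acta1 between 32731 and 54309. Of these 8, 2 were positive and 6 negative in MEF2C minus GFP, with a median log2 fold change of -0.16, and 1, Acta1, had an unadjusted p under 0.05. Acta1, skeletal actin, stood at -0.39 ± 0.13 and Myh4, a fast myosin heavy chain, at -0.30 ± 0.15, and neither was called (adjusted p of 0.715 and 0.904 by edgeR). Libraries also differed in other cell types: 8 granulocyte markers summed to 1205 CPM in MEF2C replicate 1, to 74.5 in GFP replicate 3, while the other 4 libraries held from 2.87 to 4.98, and S100a8, at 563 CPM in MEF2C replicate 1, was the only one tested.

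Carrier transcripts were dominated by Slc25a4, the ADP/ATP carrier of heart and skeletal muscle, and no carrier passed the test of a difference between the groups. Slc25a4 alone took 87.0% of the CPM of the 36 members, followed by the phosphate carrier Slc25a3 with 5.96%, the aspartate/glutamate carrier Slc25a12 with 1.74%, the second ADP/ATP carrier Slc25a5 with 1.36% and the oxoglutarate carrier Slc25a11 with 1.31%. Together the members held 14470, 13459 and 12538 CPM in the MEF2C group and 12364, 13414 and 13923 in the GFP group, which is 1.24% to 1.45% of a library. The groups overlapped, with the highest and the second lowest sums both in the MEF2C group. Without Slc25a4 the remaining 35 members summed to 1816, 1826 and 1568 CPM against 1595, 1815 and 1807. In bulk tissue, fewer cells of a type and less RNA per cell cannot be told apart.

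The shares above are on the read scale. Per kilobase of the longest annotated transcript, another scale for comparing genes, Slc25a4 had a mean of 6038 CPM. Below it came, among others, Slc25a3 at 197, Slc25a5 at 146, Slc25a11 at 102, Slc25a12 at 36.7, the acylcarnitine carrier Slc25a20 at 24.9 and the glutathione carrier Slc25a39 at 17.4. Division by length moved Slc25a12 from rank 3 on the read scale to rank 5, since its longest transcript has 6351 bases and that of Slc25a5 has 1240. A nanopore read stands for 1 cDNA whatever its length, so both scales are given. On both scales the lowest of the 36 members was Slc25a34, with 16 reads in all.

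**Figure D1:**
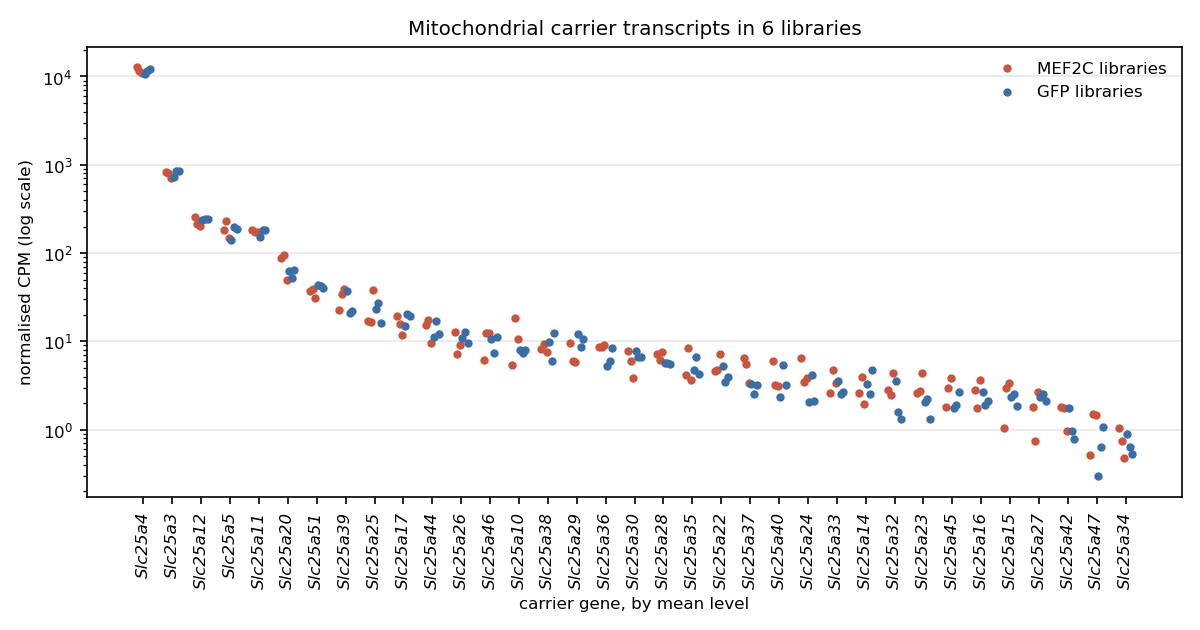
Normalised CPM of 35 of the 36 carriers on a log axis, 1 point per library, ordered by mean level from left to right. Red points are the 3 MEF2C libraries and blue points the 3 GFP libraries; Slc25a4 sits between 10769 and 12654 CPM, while Slc25a34 on the far right lies between 0.484 and 1.04.

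The question of the comparison was which transcripts differ when MEF2C is supplied to the knockout muscle. Of the 29 tested carriers 0 were called by edgeR's quasi-likelihood test at a Benjamini-Hochberg adjusted p under 0.05, where 7 of the 9229 genes were called (0.0758%), and 0 had an unadjusted p under 0.05, where 527 genes had (5.71%). DESeq2 gave 11 of the 29 an adjusted p and called 0 of them, against 27 of 4215 genes (0.641%), and left out the other 18 as too low. By limma-voom 0 carriers were called, beside 6 of the 9229 genes, and 1, Slc25a29, had an unadjusted p under 0.05, beside 508 genes. Adjusted p-values in edgeR lay between 0.872 and 0.995. A positive log2 fold change, MEF2C minus GFP, was found for 20 carriers and a negative one for 9, with a median of 0.10. Of all genes tested 52.2% were positive, with a median of 0.01. By abundance, 3 of 5 carriers at 100 CPM or more were positive, 6 of 9 between 10 and 100 CPM, and 11 of 15 below 10 CPM. Scaling by library totals alone moved the median of all genes to 0.14 and that of the carriers to 0.23, with 22 carriers positive, so the distance between the carriers and all genes moved little.

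Values that did not overlap between the groups were found for 3 of the 29 in the direction of MEF2C, or 10.3% of them, beside 5.75% of all genes tested, and for 1 in the other direction, or 3.45%, beside 5.33%. The 3 higher ones were Slc25a36, Slc25a28 and Slc25a37, and the lower one was Slc25a51. These counts rest on few genes. Among the untested members Slc25a23, with 58 reads in all, also had every MEF2C library above every GFP library.

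Precision followed abundance. The 5 carriers with a mean of 100 CPM or more had a median standard error (SE) of 0.13 on the log2 scale. None of them had a log2 fold change beyond 0.11 either way. The 9 carriers between 10 and 100 CPM had a median SE of 0.26 and a largest change of 0.37, and the 15 below 10 CPM had a median SE of 0.37 and a largest change of 0.75. For 19 of the 29 carriers the 95% interval stayed within a log2 change of 1 either way, and for 6 within 0.5, while 75.9% and 22.8% of all genes did. Differences of the size seen in the abundant carriers were below the SE of these carriers and of the low ones. They were therefore not detectable in either at this depth.

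**Figure D2:**
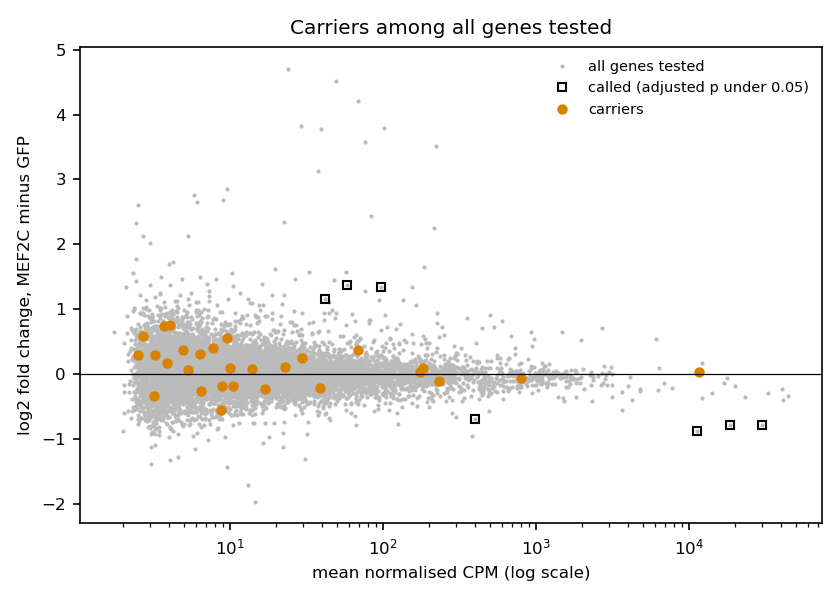
Log2 fold change, MEF2C minus GFP, against mean normalised CPM on a log axis, with 1 point per gene. Grey points are the 9229 genes tested, open squares the 7 called genes and orange points 28 of the 29 tested carriers, which lie between -0.56 and 0.75 and include no called gene.

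**Figure D3:**
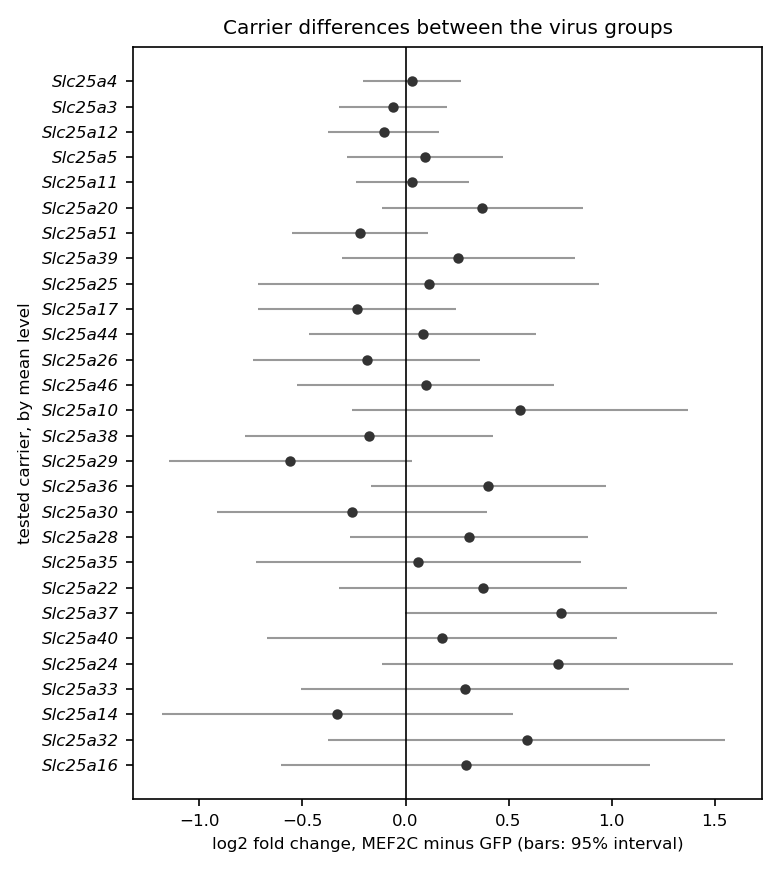
Log2 fold change of 28 of the 29 tested carriers, MEF2C minus GFP, with its 95% interval as a bar, ordered by mean level from top to bottom. Each interval crosses 0, and intervals widen from Slc25a4 (-0.21 to 0.27) to low carriers such as Slc25a32 (-0.37 to 1.55).

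Adenine nucleotide and phosphate carriers made up most of the family's reads. The list held 6 members with 5 tested, of which 4 were positive and 1 negative. Slc25a4 (ENSMUSG00000031633, GRCm38 chromosome 8, 46206797 to 46211284, minus strand) exchanges cytosolic ADP for matrix ATP. It stood at 12654, 11633 and 10970 CPM in the MEF2C group and 10769, 11599 and 12116 in the GFP group. The groups overlapped over nearly their whole range, with a fold of 1.02 (95% interval 0.868 to 1.205), a log2 fold change of 0.03 ± 0.11 (SE) and, by edgeR, an adjusted p of 0.993. Without MEF2C replicate 1 the log2 fold change was -0.03, and without GFP replicate 1 it was also -0.03.

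Slc25a5 (ENSMUSG00000016319, chromosome X, 36795651 to 36798807, plus strand) encodes the ADP/ATP carrier that most tissues share. It stood at 185, 230 and 147 CPM against 142, 197 and 187, a log2 fold change of 0.09 ± 0.17 (adjusted p of 0.993 by edgeR), with MEF2C replicate 2 highest. Slc25a4 reads outnumbered Slc25a5 reads 68.4, 50.6 and 74.7 to 1 in the MEF2C libraries and 75.7, 58.7 and 64.8 to 1 in the GFP libraries, ranges that overlap. Slc25a31, the ADP/ATP carrier of the testis, had 1 read in all. The coding sequences of these 3 genes are alike, and the way reads of near-identical copies were split is not given in the sources used here. Over the aligned coding bases Slc25a4 and Slc25a5 were 78.6% identical and shared at most 20 bases in a row. Only coding sequence was compared, not untranslated regions, pseudogenes or incomplete reads, so the assignment of reads was not tested. The stretches that follow show coding differences at the run of arginines and methionines that is a signature of ADP/ATP carriers. Each is 60 bases of coding sequence from GENCODE vM21 on GRCm38, 5′ to 3′ along the gene's strand, within 1 exon. Capitals mark the bases that differ from Slc25a4, and bases 43 to 60 encode the arginine and methionine run. The stretch of Slc25a4 lies in exon 3 at chr8:46208417-46208476 (minus strand), that of Slc25a5 in exon 3 at chrX:36797798-36797857 (plus strand) and that of Slc25a31 in exon 5 at chr3:40722689-40722748 (plus strand).
Slc25a4: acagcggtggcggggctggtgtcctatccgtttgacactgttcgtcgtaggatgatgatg
Slc25a5: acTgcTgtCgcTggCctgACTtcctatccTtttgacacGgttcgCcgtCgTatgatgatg
Slc25a31: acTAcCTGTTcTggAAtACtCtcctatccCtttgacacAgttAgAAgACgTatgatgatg
Of the 60 bases 13 differed in Slc25a5, whose 6 libraries held 4049 reads, and 21 differed in Slc25a31, with its single read.

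Slc25a3 (ENSMUSG00000061904, chromosome 10, 91116574 to 91124059, minus strand) imports the phosphate that ATP synthase uses. It stood at 824, 809 and 706 CPM in the MEF2C group and 718, 861 and 858 in the GFP group, a log2 fold change of -0.06 ± 0.12 (adjusted p of 0.993 by edgeR). Its sign was positive with library totals alone, at 0.07. Slc25a4 reads stood at 15.4, 14.4 and 15.5 per Slc25a3 read in the MEF2C group and at 15.0, 13.5 and 14.1 in the GFP group. This ratio overlapped between the groups and stayed within 13.5 to 15.5 over all 6 libraries.

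The calcium-regulated ATP-Mg/phosphate carriers, which adjust the size of the matrix nucleotide pool, were far lower. Slc25a24 (ENSMUSG00000040322, chromosome 3, 109123149 to 109168457, plus strand) stood at 6.48, 3.49 and 3.87 CPM against 2.07, 4.15 and 2.12. MEF2C replicate 1 was highest and GFP replicate 2 lay within the MEF2C range, and the log2 fold change was 0.74 ± 0.40 (adjusted p of 0.928 by edgeR). Slc25a25 stood at 16.8, 16.7 and 37.8 CPM against 23.1, 27.1 and 16.2. MEF2C replicate 3 was highest there while the other MEF2C libraries were among the lowest, and the log2 fold change was 0.11 ± 0.36. Slc25a23 had 10, 11 and 18 reads in the MEF2C libraries and 7, 7 and 5 in the GFP libraries, too few for the test. Slc25a41 of the same subgroup had 0 reads.

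Amino acid carriers were led by Slc25a12 (ENSMUSG00000027010, chromosome 2, 71271063 to 71367749, minus strand), the aspartate/glutamate carrier of the malate-aspartate shuttle in muscle and brain. It stood at 254, 214 and 205 CPM in the MEF2C group and 237, 241 and 246 in the GFP group. The GFP libraries were close together, at 242 ± 4.72 (SD, n = 3), and lay inside the wider MEF2C range. The log2 fold change of -0.11 ± 0.13 (adjusted p of 0.993 by edgeR) turned to 0.02 with library totals alone. Slc25a13, the counterpart of Slc25a12 in liver, had 5 reads in all. Coding sequences of the pair were 72.3% identical.

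Slc25a29 (ENSMUSG00000021265, chromosome 12, 108825873 to 108835883, minus strand), a carrier of basic amino acids, had the lowest fold change of the family. It stood at 9.59, 5.98 and 5.81 CPM in the MEF2C group and 12.1, 8.61 and 10.6 in the GFP group. MEF2C replicates 2 and 3 lay below all GFP libraries and MEF2C replicate 1 above GFP replicate 2. The log2 fold change was -0.56 ± 0.27 (adjusted p of 0.902 by edgeR), and -0.83 ± 0.30 without MEF2C replicate 1, with an adjusted p of 0.779 in edgeR.

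Branched-chain amino acids enter the matrix through Slc25a44, which stood at 15.3, 17.7 and 9.68 CPM against 11.3, 16.9 and 12.2, with MEF2C libraries at both ends of the range. The glycine carrier Slc25a38, needed for haem synthesis, stood at 8.29, 9.46 and 7.50 CPM against 9.78, 6.06 and 12.5, a range in which the GFP libraries surround the MEF2C libraries. Slc25a22, a glutamate carrier, stood at 4.66, 4.73 and 7.26 CPM against 5.33, 3.51 and 3.98. Its log2 fold change was 0.38 ± 0.33, and the groups overlapped. The ornithine carrier Slc25a15 had 53 reads in all and was not tested. Slc25a18, a second glutamate carrier, had 1 read, and Slc25a2, a second ornithine carrier, had 0.

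Carboxylate and acylcarnitine carriers had positive fold changes in 3 of 3 tested members, with none called. Slc25a11 (ENSMUSG00000014606, chromosome 11, 70644196 to 70647479, minus strand), the oxoglutarate/malate partner of Slc25a12 in the shuttle, was among the steadiest of the family. It stood at 184, 175 and 172 CPM against 153, 183 and 182, a log2 fold change of 0.03 ± 0.13 (adjusted p of 0.993 by edgeR).

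Slc25a20 (ENSMUSG00000032602, chromosome 9, 108662088 to 108684641, plus strand) exchanges acylcarnitines for carnitine and so feeds fatty acids to oxidation. It stood at 87.1, 95.4 and 49.6 CPM in the MEF2C group and 62.8, 52.3 and 63.9 in the GFP group. MEF2C replicates 1 and 2 were higher than all GFP libraries, and MEF2C replicate 3 was the lowest of the 6. Its log2 fold change was 0.37 ± 0.22 (adjusted p of 0.928 by edgeR), with a 95% interval from -0.11 to 0.86. Without MEF2C replicate 3 the log2 fold change was 0.61 ± 0.15 with an edgeR adjusted p of 0.196. That adjusted p was the lowest of any named carrier under any alternative, while the other alternatives gave Slc25a20 0.603 or more. MEF2C replicates 1 and 2 were also high in slow-fibre markers, but MEF2C replicate 3, lowest in Slc25a20, exceeded the GFP libraries in their sum. By edgeR 0 of the 8 slow-fibre markers were called, while all 8 were positive with an unadjusted p under 0.05, and DESeq2 called 7 of them higher. Smallest in unadjusted p were Atp2a2, the slow-fibre calcium pump, at 1.21 ± 0.23 and Myl3, a slow light chain, at 3.51 ± 0.82 (adjusted p of 0.120 and 0.749 by edgeR). The 8 markers summed to 1608, 1556 and 376 CPM in the MEF2C group and 163, 141 and 210 in the GFP group, with none of them at 0. Myh7, the slow myosin heavy chain, stood at 74.4, 68.0 and 20.1 CPM against 7.11, 0.319 and 3.71. The part of these fibres in the Slc25a20 values was not tested. Of the enzymes on the same route, Cpt1b, the muscle carnitine palmitoyltransferase, stood at 120, 113 and 82.5 CPM against 86.5, 90.6 and 125, with MEF2C replicate 3 lowest and GFP replicate 3 highest. Cpt2, the enzyme on the matrix side, stood at 47.4, 50.6 and 45.7 CPM against 42.7, 51.7 and 39.0, and its groups overlapped.

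Slc25a10 (ENSMUSG00000025792, chromosome 11, 120491840 to 120499187, plus strand), the dicarboxylate carrier that is abundant in white fat, varied most between the MEF2C libraries among these carriers. It stood at 5.44, 18.2 and 10.6 CPM in the MEF2C group and 8.0, 7.34 and 7.95 in the GFP group. MEF2C replicate 2 was highest and MEF2C replicate 1 lowest of the 6, and the log2 fold change was 0.56 ± 0.37 (adjusted p of 0.951 by edgeR). Without MEF2C replicate 2 it was 0.05, and without MEF2C replicate 1 it was 0.88 ± 0.29 (adjusted p of 0.706 by edgeR). Of 8 adipocyte markers detected, 7 were highest in MEF2C replicate 2 and 1, Lpl, in MEF2C replicate 1. In all 7 were tested and positive, with 0 called by edgeR or DESeq2 and 2 at an edgeR unadjusted p under 0.05. Lpl, the lipoprotein lipase that muscle fibres also make, stood at 396, 300 and 310 CPM against 215, 242 and 287, a log2 fold change of 0.43 ± 0.15 (adjusted p of 0.749 by edgeR). The adipocyte sum was 1307, 2210 and 1578 CPM in the MEF2C group and 1025, 1334 and 1319 in the GFP group. MEF2C replicate 1, lowest in Slc25a10, thus had a higher adipocyte sum than GFP replicate 1, the highest GFP library for Slc25a10. Adipoq, the adiponectin gene of fat cells, was at 35.8, 91.4 and 47.2 CPM against 24.0, 36.1 and 30.7. Plin1, a fat droplet protein, was at or under 2.74 CPM throughout and at 0 in GFP replicate 1. Of 6 brown-fat markers 2 were highest in MEF2C replicate 2, namely Ucp1, the uncoupling carrier of brown fat, at 18.4 CPM there and at or under 0.968 in the other libraries, and Cidea at 25.7 CPM there and at or under 3.11 elsewhere. The other 4 (Dio2, Elovl3, Cox8b and Cox7a1) were not, and the sum of the 6 was 3757, 3686 and 3008 CPM in the MEF2C group and 3363, 3214 and 3650 in the GFP group, most of it Cox8b and Cox7a1, which muscle also makes. The part of fat cells in the Slc25a10 values was not tested.

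**Figure D4:**
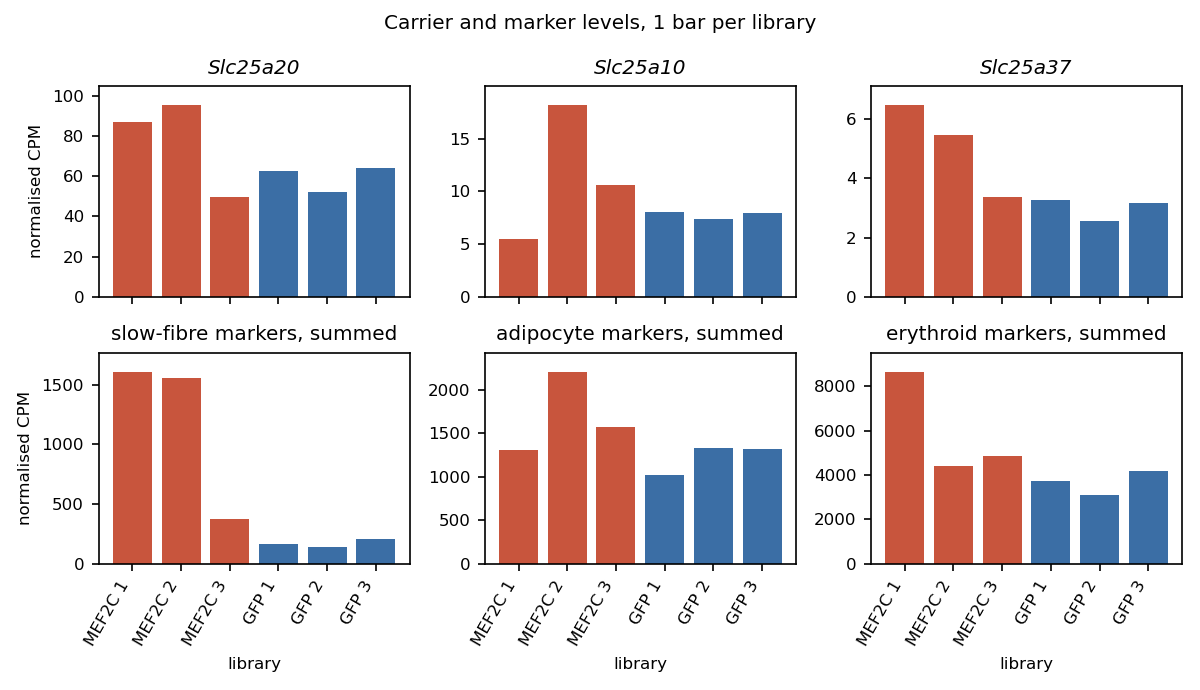
Normalised CPM of 3 carriers in the upper row and the summed markers of 3 cell types in the lower row, with 1 bar per library from 0, red for MEF2C and blue for GFP. Slc25a20 is high in MEF2C replicates 1 and 2 (87.1 and 95.4) as are the slow-fibre markers (1608 and 1556), Slc25a10 peaks with the adipocyte sum in MEF2C replicate 2, and Slc25a37 with the erythroid sum in MEF2C replicate 1. MEF2C replicate 3 has the lowest Slc25a20 (49.6), though its slow-fibre sum (376) exceeds the GFP libraries (141 to 210). It also has a higher erythroid sum than MEF2C replicate 2 (4855 against 4394) but less Slc25a37 (3.39 against 5.48). MEF2C replicate 1 has a higher adipocyte sum than GFP replicate 1 (1307 against 1025) but less Slc25a10 (5.44 against 8.0).

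Cofactor and other nucleotide carriers numbered 9 members, of which 8 were tested, 5 positive and 3 negative. The mitochondrial NAD carrier Slc25a51 (ENSMUSG00000045973, chromosome 4, 45395923 to 45408766, minus strand) stood at 37.3, 39.6 and 31.0 CPM in the MEF2C group and 43.3, 42.4 and 40.0 in the GFP group. Every MEF2C library lay below every GFP library, the nearest by 39.6 against 40.0 CPM, and the log2 fold change was -0.22 ± 0.15 (adjusted p of 0.952 by edgeR).

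Slc25a17 (ENSMUSG00000022404, chromosome 15, 81318911 to 81360812, minus strand), a carrier of coenzyme A and related nucleotides in the peroxisome, stood at 19.2, 15.9 and 11.9 CPM against 15.1, 20.4 and 19.6, with a log2 fold change of -0.23 ± 0.22 (adjusted p of 0.993 by edgeR). MEF2C replicate 3 was its lowest library. The pyrimidine nucleotide carrier Slc25a36 (ENSMUSG00000032449, chromosome 9, 97074961 to 97111157, minus strand) stood at 8.55, 8.72 and 9.20 CPM in the MEF2C group and 5.33, 6.06 and 8.48 in the GFP group. The groups were apart by 8.48 against 8.55 CPM, and the log2 fold change was 0.40 ± 0.27 (adjusted p of 0.947 by edgeR). Its paralogue Slc25a33, with 66.9% identical coding bases, stood at 2.59, 4.73 and 3.39 CPM against 3.56, 2.55 and 2.65, and its groups overlapped.

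The carrier of S-adenosylmethionine, Slc25a26, stood at 12.7, 7.22 and 9.20 CPM against 10.96, 12.8 and 9.54. Slc25a32, linked to folate and flavin transport, stood at 2.85, 2.49 and 4.36 CPM against 3.56, 1.595 and 1.32, which is 5 to 18 reads per library. Slc25a16 stood at 2.85, 1.74 and 3.63 CPM against 2.67, 1.91 and 2.12. In these 3 genes the groups overlapped. The coenzyme A carrier Slc25a42 had 30 reads in all and was not tested.

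Iron and glutathione carriers were positive in 4 of 4 tested members, with a median of 0.28 beside 0.01 over all genes and with none called. Slc25a37 (ENSMUSG00000034248, chromosome 14, 69241848 to 69285112, minus strand) encodes mitoferrin-1, the iron importer of developing red cells. It had the highest log2 fold change of the family, at 0.75 ± 0.35. Its unadjusted p was the smallest of the family (edgeR unadjusted p = 0.0505, adjusted p = 0.872). Levels were 6.48, 5.48 and 3.39 CPM in the MEF2C group and 3.26, 2.55 and 3.18 in the GFP group, from 8 to 25 reads a library. The groups were apart, by 3.39 against 3.26 CPM, which is 14 against 11 reads. Without MEF2C replicate 3 the log2 fold change was 0.98 ± 0.35 (adjusted p of 0.621 by edgeR). Without MEF2C replicate 1 it was 0.55 (adjusted p of 0.989 by edgeR).

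Red-cell transcripts were also highest in MEF2C replicate 1. In the erythroid list 7 markers were in the table, 7 were detected, 5 were tested and 5 were positive, with 2 at an unadjusted p under 0.05 and 0 called by edgeR or DESeq2. Those 2, Hba-a2 and Hbb-bs, which encode globins, stood at 0.71 ± 0.27 and 0.66 ± 0.26 (adjusted p of 0.856 by edgeR for both). The sum of the 7 was 8643, 4394 and 4855 CPM in the MEF2C group and 3724, 3081 and 4167 in the GFP group, most of it globin. Slc4a1, the red-cell anion exchanger, stood at 7.51 CPM in MEF2C replicate 1 and at or under 0.968 in the others. Alas2, the first enzyme of haem synthesis in red cells, stood at 30.8, 17.7 and 20.1 CPM against 16.3, 17.5 and 15.9, a log2 fold change of 0.46 ± 0.23 (adjusted p of 0.900 by edgeR). MEF2C replicate 1, the highest library for Slc25a37 and for the erythroid sum, was also the highest in granulocyte transcripts. GFP replicate 3, the second highest in granulocyte transcripts at 74.5 CPM, had Slc25a37 at 3.18 CPM. The part of blood cells in the Slc25a37 values was not tested.

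Mitoferrin-2, Slc25a28, is the iron importer outside the red lineage. It stood at 7.25, 6.23 and 7.50 CPM in the MEF2C group and 5.63, 5.74 and 5.57 in the GFP group. The groups did not overlap, the GFP libraries lay within 5.57 to 5.74 CPM, and the log2 fold change was 0.31 ± 0.27 (adjusted p of 0.989 by edgeR). The glutathione carrier Slc25a39 stood at 22.5, 34.4 and 39.0 CPM against 37.0, 21.1 and 22.3. Both groups spread over about the same range, since GFP replicate 1 was near the top and MEF2C replicate 1 near the bottom, and the log2 fold change was 0.26 ± 0.26. Its paralogue Slc25a40, with 64.8% identical coding bases, stood at 5.96, 3.24 and 3.15 CPM against 2.37, 5.42 and 3.18, again with overlap.

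Carriers related to the uncoupling proteins were negative in both tested members. Slc25a30 (ENSMUSG00000022003, chromosome 14, 75760117 to 75787037, minus strand) stood at 7.77, 5.98 and 3.87 CPM against 7.70, 6.70 and 6.63, a log2 fold change of -0.26 ± 0.31 (adjusted p of 0.993 by edgeR). MEF2C replicate 1 was its highest library and MEF2C replicate 3 its lowest. Slc25a14 stood at 2.59, 3.98 and 1.94 CPM against 3.26, 2.55 and 4.77, and Slc25a27 had 45 reads in all. Among carriers with no number in their symbol, Ucp3, the muscle uncoupling protein, stood at 28.2, 25.7 and 16.0 CPM in the MEF2C group and 39.4, 36.7 and 30.2 in the GFP group. Its groups did not overlap, and the log2 fold change of -0.61 ± 0.21 was not called (adjusted p of 0.749 by edgeR). Of these 5 unnumbered genes 4 were tested, 2 were positive, 0 were called by edgeR or DESeq2 and 1, Ucp3, had an unadjusted p under 0.05 in edgeR, with Mtch1, an outer-membrane relative, at 0.31 ± 0.21.

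Carriers of less well defined substrate included Slc25a46, an outer-membrane protein tied to mitochondrial shape. It stood at 6.22, 12.5 and 12.6 CPM against 10.7, 7.34 and 11.1. Slc25a35 stood at 4.15, 8.47 and 3.63 CPM against 4.74, 6.70 and 4.24, with MEF2C replicate 2 highest as for Slc25a10. Slc25a45, Slc25a47 and Slc25a34 had 57, 21 and 16 reads and were not tested. Of the genes below 10 counts not yet named, Slc25a21, Slc25a48 and Slc25a53 had 1 read each, and Slc25a43 and Slc25a54 had 0.

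**Figure D5:**
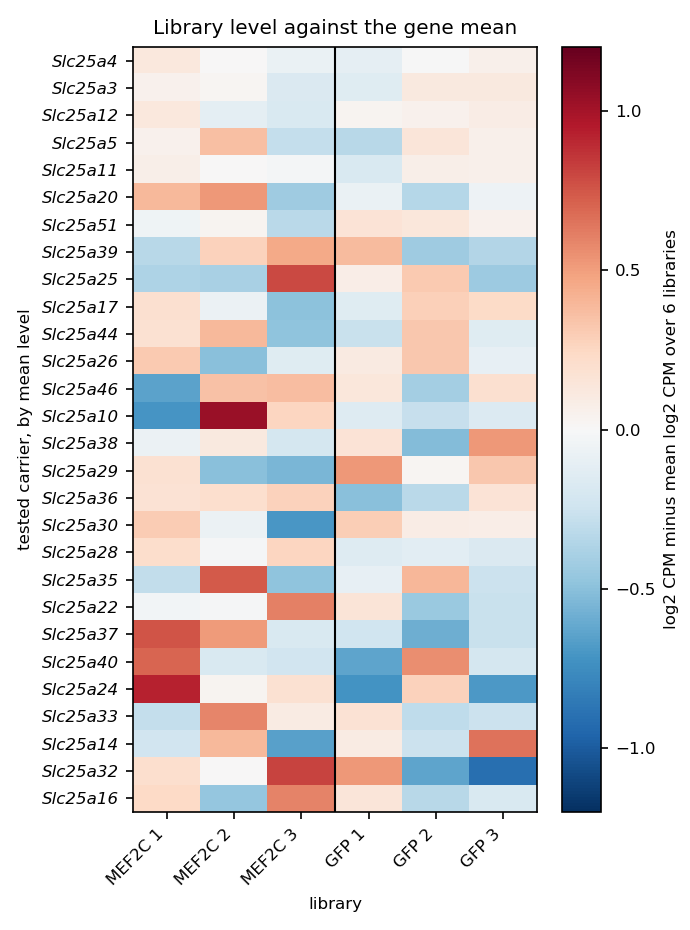
Log2 level of 28 of the 29 tested carriers in each library against the gene's mean over the 6 libraries, red above and blue below, with genes ordered by mean level and a line between the groups. Rows at the top are pale, and the strongest colours are single libraries of low carriers, such as Slc25a10 in MEF2C replicate 2 and Slc25a24 in MEF2C replicate 1.

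Extreme values were spread unevenly over the libraries. The highest of the 6 values fell in MEF2C replicates 1, 2 and 3 for 8, 6 and 8 carriers, or 27.6%, 20.7% and 27.6%, and over all genes tested for 17.7%, 15.7% and 19.3%. GFP replicates 1, 2 and 3 held the highest value of 2, 3 and 2 carriers, or 6.90%, 10.3% and 6.90%, beside 18.2%, 16.1% and 13.0% of all genes. MEF2C replicate 3 also held the lowest value of 10 carriers, or 34.5%, beside 18.5% of all genes. Lowest values fell in MEF2C replicates 1 and 2 for 2 carriers each, and in GFP replicates 1, 2 and 3 for 7, 5 and 3. All of these counts rest on few genes, and the highest values in part restate the positive fold changes. By log2 of CPM plus 0.5, the pairs of carriers most alike over the 6 libraries included Slc25a3 with Slc25a17 (Pearson r = 0.92) and Slc25a32 with Slc25a22 (0.91). These are among the highest values over all pairs of tested carriers, given as a description, and the points share libraries and scaling.

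By edgeR and DESeq2 0 of the genes tested beside the carriers in this paragraph and the next were called, with 1, Mcu, at an edgeR unadjusted p under 0.05 among inner-membrane transporters and 1, Hk2, among outer-membrane genes, and library totals alone shifted their counts as they shifted all genes. In the import machinery 13 genes were tested, 8 were positive and 0 called, with a median of 0.04 and 12 positive with library totals alone. Tomm40, the outer-membrane pore, stood at 0.52 ± 0.41 and Timm9, a chaperone between the membranes, at 0.20 ± 0.16. Of 14 tested genes for other inner-membrane transport 10 were positive and 0 called. Mcu, the calcium uniporter, stood at 5.18, 3.49 and 2.18 CPM against 7.11, 5.10 and 6.63, a log2 fold change of -0.80 ± 0.35 (adjusted p of 0.856 by edgeR), and Sfxn2 stood at 0.58 ± 0.36. Of 6 tested outer-membrane channel and kinase genes 0 were called. Hk2, the muscle hexokinase that docks on the channel Vdac1, stood at 394, 370 and 374 CPM against 347, 309 and 277, with groups that did not overlap and a log2 fold change of 0.29 ± 0.12 (adjusted p of 0.856 by edgeR), and Vdac1 stood at -0.15 ± 0.14.

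Enzymes that use what the carriers deliver were positive in 8 of 15 tested genes and 0 were called. Those with the smallest unadjusted p were Alas2, which also counts as an erythroid marker, and Bcat2, the branched-chain aminotransferase, at -0.22 ± 0.15. Genes that track mitochondrial content were negative in 10 of 10 tested cases, with a median of -0.15 and 0 called. Scaling by DESeq2 size factors or by library sizes without the 50 most abundant genes also gave 10 of 10 negative. With library totals alone 4 of the 10 were positive and the median was -0.01. That scaling moved the median of all genes from 0.01 to 0.14. Cs, citrate synthase, stood at 544, 497 and 420 CPM against 528, 604 and 547, a log2 fold change of -0.20 ± 0.13 (adjusted p of 0.930 by edgeR). Ppargc1a, a coactivator of mitochondrial genes, stood at 21.2, 26.6 and 18.9 CPM against 31.4, 27.4 and 27.3, a log2 fold change of -0.37 ± 0.18 (adjusted p of 0.904 by edgeR). Remaining marker lists gave 0 calls by edgeR or DESeq2 and 0 genes at an unadjusted p under 0.05 in edgeR: 4 of 6 tested endothelial genes were positive (Pecam1 at 0.18 ± 0.16 and Cdh5 at 0.22 ± 0.21), 5 of 6 tested macrophage genes (C1qa at 0.33 ± 0.23 and Csf1r at 0.19 ± 0.20) and 3 of 3 tested brown-fat genes (Cidea at 2.65 ± 1.30 and Cox8b at 0.03 ± 0.12).

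The members lay on 17 chromosomes, with 5 on chromosome 11. Numbered carriers stood within 100000 bases of each other in 4 cases. Slc25a29 and Slc25a47 on chromosome 12 were the closest, on opposite strands with 162 bases between them, and had 193 and 21 reads. Slc25a41 and Slc25a23 on chromosome 17, Slc25a54 and Slc25a24 on chromosome 3, and Slc25a43 and Slc25a5 on chromosome X were 2056, 6461 and 18448 bases apart. In each of these 3 pairs the first gene had 0 reads, while Slc25a23, Slc25a24 and Slc25a5 had 58, 83 and 4049.

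Promoter windows in RefSeq (GRCm38.p6), from 250 bases before to 50 after a start, were found for 27 of the 36 members, in 35 windows. On either strand the ERR element TCAAGGTCA, bound by receptors that drive mitochondrial genes, was in 0 of the 35, and 0.266% of the 9404 windows of tested genes held it. An NRF1 site was in 0 of the 35 beside 2.16%, and a MEF2 site in 0 beside 0.489%. Both were searched as strict patterns, so looser forms of these sites were not counted. The E-box CAGCTG, bound by myogenic factors, was in 3 of the 35 (8.57%), those of Slc25a11, Slc25a24 and Slc25a34, beside 15.2% of the windows of tested genes. With 35 windows, shares of this size differ by a few windows, and an absent match says only that these letters are not in the window. The median GC content of the member windows was 59.7% and that of tested genes 60.7%, with 15 and 20 CpG pairs per window.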

How the data were processed

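In all, 6 libraries were analysed, 3 per group. Per the labels' protocols, RNA from frozen tissue was made into Nanopore PCR-cDNA, which is amplified before sequencing. The deposited table holds counts per gene, per the file headers, and deposited CPM scaled to the whole library, used only to recover totals (listed genes came to 95.6% to 96.4%). Per the submitters' processing notes, minimap2, GRCm38 and DESeq2 1.6.3 were used; for the counter, annotation, strand setting and filters the sources used here give nothing. Beside its 22036 genes, 30 rows without a gene name held 0 counts and were dropped. Results of 2 family genes and 1 marker are not reported here; 1 of the 2 is in the counts and sums but not drawn.

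The test of counts used edgeR 4.0.16 and R 4.3.3 (TMM, filter by group, robust quasi-likelihood test, Benjamini-Hochberg over all 9229 genes tested, threshold 0.05), after a check on simulated data. The ± of a fold change is its SE. Alternatives used DESeq2 1.42.0, limma 3.58.1 (voom), other scalings and filters, a transcript length correction, a replicate block and leaving out each library. Coordinates and lengths came from GENCODE vM21 (22022 identifiers matched). Same-group libraries differed beyond sampling noise (chi-square per degree of freedom 5.65 to 11.7). Members and lists were chosen with earlier results of these data known. Full statistics go to the 5 carriers with the smallest p in each direction and the 6 with the highest level per kilobase; in each other list, the 2 tested genes with the smallest p, or the 1 tested, are named. Other carriers are described by role, and other genes named (Myh7, Plin1, Ucp1, Dio2, Elovl3, Cox7a1, Slc4a1, Cpt1b, Cpt2, Ckm) were chosen after their values were seen.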

Additional observations from a re-analysis of the deposited data

How the results depend on the processing

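Counts of called carriers were 0 in all 16 alternatives. The count of all genes called, 7, became 35 with no low-count filter, 3 with the strict filter, 27 by the DESeq2 Wald test, 0 without robust dispersion (557 at an unadjusted p under 0.05 in edgeR) and 0 to 22 with 1 library left out, the 0 without GFP replicate 3 (386 at an unadjusted p under 0.05 in edgeR) and the 22 without MEF2C replicate 3. Carriers with an unadjusted p under 0.05 were 0 of 29 in the main edgeR test, beside 527 of 9229 genes. They numbered 2 of 29 with library totals alone (770 of 9229 genes) and 2 of 36 with no low-count filter (872 of 15334 genes). By limma-voom there was 1 of 29 (508 of 9229 genes), and without robust dispersion also 1 of 29 (557 genes). With 1 library left out there were 0 to 2 carriers, beside 385 to 653 genes. These counts rest on few carriers. The carriers' median log2 fold change of 0.10 was 0.23 with library totals alone and 0.0365 to 0.236 with 1 library left out.

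Of 222 values for the 14 carriers with full statistics, 213 kept their direction and side of the threshold and 9 changed sign. Among the 213, DESeq2 gave no adjusted p to Slc25a37, Slc25a24, Slc25a36, Slc25a10, Slc25a29 and Slc25a30, which were counted as not called. With library totals alone Slc25a12 stood at 0.0185 and Slc25a3 at 0.0697. With 1 library left out Slc25a4 ranged from -0.0297 to 0.0777, Slc25a11 from -0.0599 to 0.0722, Slc25a5 from -0.0847 to 0.239 and Slc25a3 from -0.156 to 0.0051. With the replicate number as a replicate block 2 genes and 0 carriers were called (436 genes at an unadjusted p under 0.05 in edgeR), and the carriers' median was 0.07. Libraries of the same number did not deviate together (correlations of -0.24, 0.05 and -0.25), nor did each correlate best with its own number. These values gave no sign of pairing, but with 3 libraries per group they cannot exclude it. The cause of these shifts was not tested. Read depth limits the 15 carriers below 10 CPM most.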
